A study of Mus musculus with 2 samples.

Results

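The granzymes and cytotoxic effectors described here are 9 of the 32285 genes in each expression matrix. They are Gzma, Gzmb, Gzmc, Gzmk and Gzmm (granzymes), Prf1 (perforin), Nkg7 (a granule membrane protein), Fasl (a death ligand) and Serpinb9 (a granzyme B inhibitor), chosen by name, and all 9 were in both matrices. Single cells of KPC mouse pancreatic tumours were profiled 21 days after orthotopic implantation. Control mice carried floxed Porcn alleles without Cre (Porcnfl/fl, the group named WT), and their knockout littermates carried the same alleles with Csf1r-Cre (Csf1r-Cre;Porcnfl/fl, the group named KO). KPC cells are mouse pancreatic cancer cells, and Porcn encodes the enzyme that acylates Wnt proteins before secretion. The labels call the Cre line specific to macrophages, and the cancer cells and lymphocytes of both groups are not its stated targets. Tumours of 5 mice were pooled into 1 library per genotype, with no age given. There was thus no replicate check, no test between genotypes and no p-value, and all intervals (95%, exact) cover counting error only.

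Cytotoxic lymphocytes kill by releasing granules. Perforin opens pores in the target's membrane, and granzymes, which are serine proteases, pass through and cleave proteins that lead to cell death. CD8 T cells and NK cells are the main carriers, and their granule contents differ by lineage and state of activation. Fas ligand acts by a separate route, through the receptor Fas on the target, and serpins of the Serpinb9 type protect a cell from granzyme B that leaks into its own cytosol.

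The control library gave 11516 cells after filtering and the knockout library 10467, with median depths of 12167.5 and 10109 unique molecular identifiers (UMIs) per cell. Levels are UMIs of a gene per 1000000 UMIs of the cells in question (CPM). Porcn had 1212 UMIs in the control and 637 in the knockout cells, or 7.18 and 4.93 CPM. Epithelial-like cells, not a stated target of the Cre line, held 741 and 326 of these, at a ratio of 0.699 (0.612 to 0.798). The whole-library Porcn values are thus no check of the genotype. In monocyte/macrophage-like cells the counts were 8 and 4, and the knockout over control ratio of 0.433 (0.0953 to 1.61) does not settle the genotype check at this depth. The labels do not say which exons are removed, and a 3′ tag outside them would not show the deletion. The libraries shared 46 barcodes, 38 of them among kept cells and 0 among T and NK cells.

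T and NK cells numbered 226 in the control library (1.96% of kept cells) and 1862 in the knockout library (17.8%), at median depths of 2862.5 and 3298 UMIs. Their subsets were rebuilt from marker genes after clustering without the 9 genes, so the names below are not the authors'. The CD8-like T cells numbered 66 and 422 (median 3523 and 4160.0 UMIs), with Cd8a in 92.4% and 84.4% of cells, Cd4 in 1.52% and 4.74%, and Pdcd1, the PD-1 gene, in 71.2% and 67.1%. They were all in 2 clusters with checkpoint transcripts, which held 33 control cells each and 203 and 219 knockout cells. The NK-like cells numbered 34 and 235 (median 3574 and 3158 UMIs), with the NK receptor gene Ncr1 in 61.8% and 61.3%. Within the NK-like cells Klrb1c was found in 64.7% and 41.3% and Trdc in 17.6% and 32.3%, so the NK-like sets of the libraries were not alike in these genes. The part of this difference in the results on NK-like cells was not tested. Foxp3 regulatory-like T cells numbered 19 and 260, naive-like T cells 15 and 410, and cycling T-like cells 10 and 92. Mixed T cells, with neither Cd8a nor Cd4 dominant, numbered 31 and 177 with checkpoint transcripts and 7 and 206 without. A shallow T cluster of 40 and 50 cells, median 1336.5 and 1432.5 UMIs, stayed unnamed. Ratios are given only for sets with at least 20 cells in each library.

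RNA of other cells was present at a low level in these lymphocytes. In the CD8-like T cells the epithelial marker list of 9 genes summed to 157 CPM in the control and 142 CPM in the knockout library, with Cldn4, Cldn7 and Lcn2 at 0 UMIs in both. In the NK-like cells it summed to 199.9 and 140.4 CPM, with Krt7, Cldn4, Cldn7 and Lcn2 at 0 in both. The 12-gene monocyte and macrophage list summed to 348 and 314 CPM in the CD8-like T cells. In the NK-like cells it summed to 1138 and 601 CPM, with Csf1r, Adgre1, Ms4a7 and Mrc1 at 0 in both, and only Ly6c2 and Ccr2 had UMIs in the control. The part of these transcripts in the results below was not tested.

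The 5 granzyme genes lie in 3 places of the mouse genome (GRCm38, GENCODE M21, all protein coding). Gzma (ENSMUSG00000023132, chr13:113093825-113100981) and Gzmk (ENSMUSG00000042385, chr13:113171608-113225908) are neighbours on chromosome 13, 70.6 kb apart. Gzmb (ENSMUSG00000015437, chr14:56258838-56262260) and Gzmc (ENSMUSG00000079186, chr14:56231441-56234656) lie 24.2 kb apart on chromosome 14, all 4 on the minus strand. Gzmm (ENSMUSG00000054206, chr10:79689020-79695261) lies apart on the plus strand of chromosome 10. The neighbours differed in how their UMIs were spread over cell types in these tumours. NK-like cells held 86.5% of the Gzma UMIs of the knockout library but 1.94% of those of Gzmk, and CD8-like T cells held 42.1% of the Gzmb UMIs but 1.06% of those of Gzmc. Gzmb was found in both types of cell, at 1013 CPM in the knockout CD8-like T cells and 1661 CPM in the knockout NK-like cells. Because neighbours with related products differed in this spread, the 250 bases upstream of each start are shown, 5′ to 3′ on the gene's own strand, from RefSeq on GRCm38.p6. None of these bases lies in a GENCODE exon. The Gzmk stretch, upstream of its RefSeq start, lies wholly inside the longer GENCODE gene. Capitals mark matches to 6 short motifs searched on both strands, described after the letters.
Gzma, chr13:113100982-113101231, minus strand: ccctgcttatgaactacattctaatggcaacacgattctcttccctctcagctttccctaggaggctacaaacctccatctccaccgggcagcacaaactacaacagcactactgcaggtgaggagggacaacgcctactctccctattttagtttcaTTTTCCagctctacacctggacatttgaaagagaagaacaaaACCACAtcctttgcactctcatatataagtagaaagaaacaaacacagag
Gzmk, chr13:113180966-113181215, minus strand: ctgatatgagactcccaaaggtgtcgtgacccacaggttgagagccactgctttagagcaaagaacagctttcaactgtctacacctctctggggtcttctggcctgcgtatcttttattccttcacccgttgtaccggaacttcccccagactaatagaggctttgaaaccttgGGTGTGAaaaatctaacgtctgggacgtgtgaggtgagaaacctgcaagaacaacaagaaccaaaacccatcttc
Gzmb, chr14:56262335-56262584, minus strand: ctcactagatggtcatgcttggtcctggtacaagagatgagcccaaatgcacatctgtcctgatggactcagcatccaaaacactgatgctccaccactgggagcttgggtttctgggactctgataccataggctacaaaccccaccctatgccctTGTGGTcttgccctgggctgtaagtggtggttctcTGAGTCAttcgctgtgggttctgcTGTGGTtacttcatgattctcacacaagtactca
Gzmc, chr14:56234658-56234907, minus strand: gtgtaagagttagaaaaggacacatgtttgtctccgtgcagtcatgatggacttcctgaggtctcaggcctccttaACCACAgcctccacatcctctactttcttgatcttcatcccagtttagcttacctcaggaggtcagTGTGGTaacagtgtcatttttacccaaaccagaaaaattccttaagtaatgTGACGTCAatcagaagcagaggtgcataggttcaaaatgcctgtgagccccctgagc

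The motif of RUNX factors (TGTGGT) was found in 13.96% of 32526 such upstream stretches of all genes, and it was present upstream of 6 of the 9 genes. Positions are counted back from the start, with -1 the base just before it. RUNX matches are at -50 in Gzma, at -93 and -34 in Gzmb, and at -174 and -108 in Gzmc, of which -50 and -174 read ACCACA, the letters of the other strand. The T-box site GGTGTGA, found in 3.33% of all stretches, is at -75 in Gzmk and was also present upstream of Nkg7 and of an alternative RefSeq start of Gzmm. The AP-1 motif TGANTCA (6.73% of all) is at -58 in Gzmb, and the CRE motif TGACGTCA (1.56%) is at -57 in Gzmc. The NFAT core GGAAAA (20.4%) is at -92 in Gzma, as TTTTCC, and was present upstream of 4 of the 9 genes. The STAT motif TTCNNNGAA (7.04%) was present upstream of Gzmm and Nkg7. Both RUNX matches of Gzmb flank its AP-1 match, and no motif overlapped another. A match describes these letters and is not a shown binding site.

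Over each whole library, 7 of the 9 genes were at least 2-fold higher in the knockout and none was 2-fold lower, where 11.7% of all genes with at least 20 UMIs were higher and 2.69% lower by that margin. Gzma, a granzyme of NK cells and memory T cells, had 1040 UMIs in the control and 4950 in the knockout library, a ratio of 6.21 (5.81 to 6.65). Nkg7 had 1913 and 11454 UMIs, a ratio of 7.82, and Gzmk had 49 and 413, a ratio of 11. The other 4 were Gzmb at 6.84, Prf1 at 5.62, Fasl at 10.5 and Gzmc at 2.82. Gzmm, at 1.07 (0.827 to 1.37), and Serpinb9, at 0.869 (0.842 to 0.896), did not share this pattern. In whole libraries the number of cytotoxic cells and the RNA per cell cannot be told apart, so all further values are within sets of cells.

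**Figure D1:**
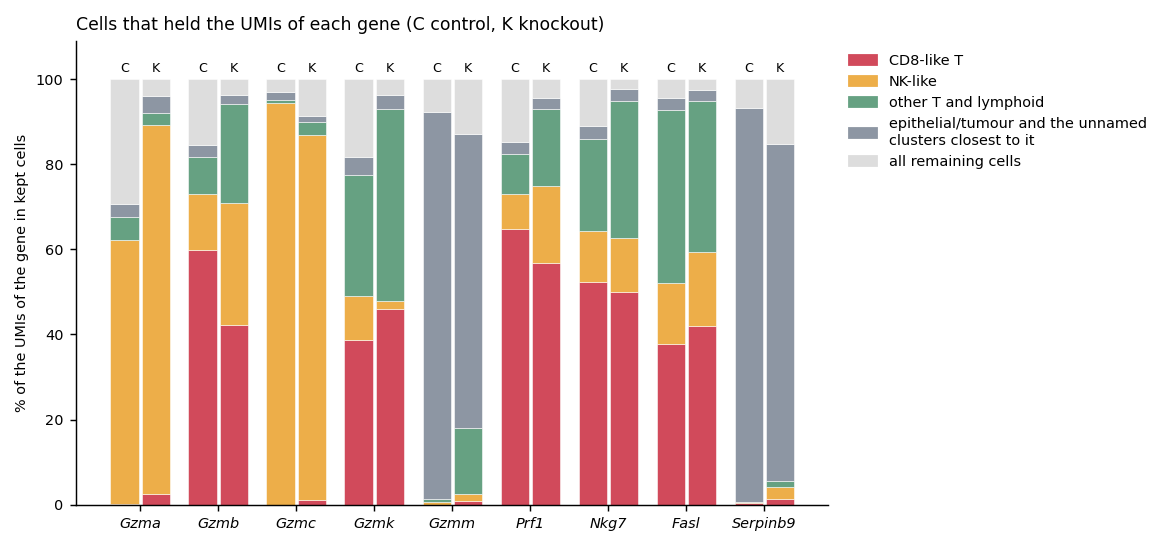
Percentage of each gene's UMIs found in each set of cells (stacked bars, y axis 0 to 100%), for the control (C) and knockout (K) library. Gzma and Gzmc sit mostly in NK-like cells, Gzmb, Prf1 and Nkg7 mostly in CD8-like T and NK-like cells, and Gzmm and Serpinb9 mostly outside T and NK cells.

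Most of the members' RNA was in T and NK cells, with 2 exceptions. T and NK cells held 85.9% of the Nkg7 UMIs in the control and 94.8% in the knockout library, 92.8% and 94.95% of those of Fasl, and 82.4% and 93.0% of those of Prf1. They held 1.41% and 18.1% of the Gzmm UMIs and 0.753% and 5.67% of those of Serpinb9. Both of these genes had most of their UMIs in epithelial-like cells and the unnamed clusters closest to them.

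Within the pooled T and NK cells the ratios differed from those over whole libraries. All 9 genes had at least 20 UMIs, none was 2-fold higher in the knockout library and 1, Gzmc, was 2-fold lower (4.14% and 5.09% of all genes). The interval of the ratio lay wholly below 1 for 6 genes and wholly above 1 for none, and the median log2 ratio was -0.56 against -0.05 over all genes. Gzma was at 883 (819 to 951) CPM in the control and 598 (581 to 616) in the knockout library, Gzmb at 919.5 (854 to 989) and 581 (564 to 598), and Prf1 at 739 (680.1 to 801) and 376 (362 to 389.6). None of these 3 pairs of intervals overlapped. Gzmk, with a ratio of 1.06 (0.756 to 1.52), and Fasl, with 0.861 (0.663 to 1.13), had intervals that included 1. The subsets made up different parts of the T and NK cells in the libraries: naive-like T cells, low in most members in the knockout library, gave 5.37% of the control and 16.4% of the knockout T and NK UMIs. With every subset given the same weight in both libraries, the log2 ratio was -0.12 for Gzma, -0.37 for Gzmb, -0.57 for Prf1, -0.32 for Nkg7 and 0.04 for Fasl. This weighting also used subsets with under 20 control cells. The 15 control naive-like T cells had a weight of 10.9%, with 43 Gzma UMIs in 1 of them, so the sign for Gzma is uncertain.

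Single cells weighed heavily in these sums. Without the 2 cells of each library that held most UMIs of the gene, the log2 ratio over T and NK cells moved from -0.56 to 0.57 for Gzma, from -0.67 to -0.17 for Gzmb and from -2.23 to -0.56 for Gzmc. This check was added after the data had been seen, and 2 cells are a larger part of the control library's cells than of the knockout library's. The direction for Gzma in the pooled cells therefore rested on 2 cells per library.

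**Figure D2:**
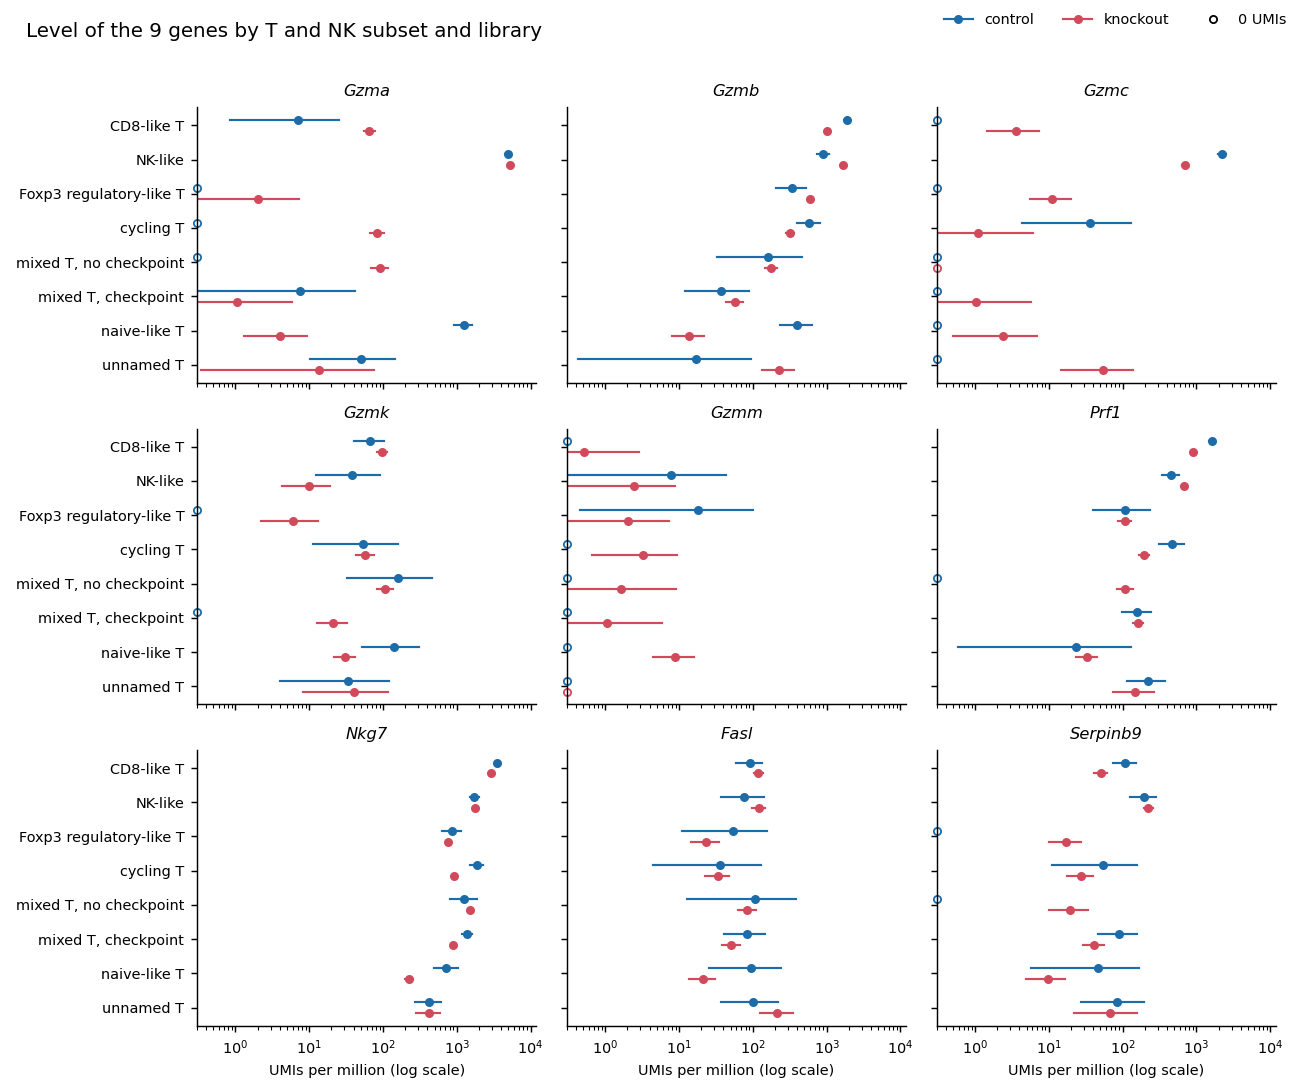
Level of each gene in each set of T and NK cells (x axis, CPM on a log scale; circles are libraries, bars exact 95% Poisson intervals covering counting error only; open circles at the left edge mark 0 UMIs). Gzma and Gzmc stand out in NK-like cells, and Gzmb, Prf1 and Nkg7 are at or near their highest in CD8-like T and NK-like cells.

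Gzma, a tryptase-type granzyme, was found mainly in NK-like cells. The NK-like cells had 644 UMIs in 34 control cells and 4282 in 235 knockout cells, that is 4950.4 (4575 to 5348) and 5272 (5116 to 5433) CPM, and the intervals overlapped. The ratio was 1.07 (0.980 to 1.16). In the CD8-like T cells the levels were 6.96 (0.843 to 25.2) and 65.5 (54.7 to 77.9) CPM, far below those in NK-like cells in both libraries.

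The spread of Gzma over the NK-like cells differed more than its sum. A Gzma UMI was found in 41.2% of control and 58.7% of knockout NK-like cells, and in 30.3% (15.6% to 48.7%) and 54.7% (48.1% to 61.3%) once each cell was thinned to 1000 UMIs (33 and 232 cells deep enough). The thinned intervals overlapped only at their edges. In the control, 91.6% of the UMIs were in 5 cells and 1 cell alone held 323, while in the knockout the top 5 cells held 22.0%. Among NK-like cells with the gene, the median was 9 UMIs in the control and 22.5 in the knockout library. Without the 2 highest cells of each library the log2 ratio was 1.35 in place of 0.09, and with NK cells gated by Ncr1 or Klrb1c in place of clustering it was 1.84. No Gzma UMI was found in 449 knockout B-like cells at a median of 2969 UMIs, which allows up to 0.677% of thinned cells with a UMI, nor in neutrophil-like cells of either library.

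Gzma in CD8-like T cells was the only member called higher there, on little evidence. It had 2 control UMIs and 128 knockout UMIs, a ratio of 9.41 (2.55 to 78.5), but the knockout UMIs were in 9 of 422 cells and 96.1% were in 5. The highest cell had 81 Gzma UMIs, no Cd3e and no Cd8a, and the next had 24, again with neither but with 1 Ncr1 UMI. The direction turned under 5 of the alternative settings, so it is not taken as a difference between the libraries. Elsewhere Gzma was scarce: 0 and 2 UMIs in Foxp3 regulatory-like T cells and 5 in 410 knockout naive-like T cells. The 53 UMIs among the 15 control naive-like T cells were in 3 cells, 43 of them in 1.

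Gzmc, one of a cluster of closely related granzymes on chromosome 14, was also found mainly in NK-like cells, which held 94.4% of its control and 85.8% of its knockout UMIs. Its level there was 2222 (1973 to 2493) CPM in the control and 697 (641 to 757) in the knockout library, a ratio of 0.314 (0.272 to 0.363). The intervals did not overlap, and Gzmc was the 1 member of 7 with at least 20 UMIs called 2-fold lower in NK-like cells, with none called higher (5.08% and 6.38% of all genes). Yet 97.9% of the control UMIs were in 5 cells and 1 cell held 148 of 289. Without the 2 highest cells of each library the log2 ratio was -0.10 (-0.51 to 0.38), an interval that includes 0, and it was -1.67 with them. The share of cells with Gzmc was 26.5% and 12.3%, or 15.2% (5.11% to 31.9%) and 9.05% (5.69% to 13.5%) after thinning, with overlapping intervals. CD8-like T cells had 0 and 7 Gzmc UMIs. The count of 0 in the control allows up to 4.55% of the thinned cells to have a UMI.

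Gzmb, the granzyme that activates caspases, was shared by CD8-like T, NK-like and Foxp3 regulatory-like T cells, and the direction of its difference depended on the subset. In CD8-like T cells it stood at 1870.0 (1715 to 2035) CPM in the control (537 UMIs) and 1013 (969 to 1059) in the knockout library (1979 UMIs), a ratio of 0.542 (0.492 to 0.597). In NK-like cells it stood at 907 (751 to 1086) and 1661 (1574 to 1752) CPM, a ratio of 1.83 (1.52 to 2.23). In neither subset did the intervals overlap, and the control was the higher library in CD8-like T cells and the lower in NK-like cells. The gated NK cells gave a log2 ratio of 2.03, against 0.86 in the NK-like clusters.

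The lower Gzmb level of the knockout CD8-like T cells went with a share of Gzmb-positive cells that was not lower. The share was 54.5% in the control and 62.8% in the knockout library, and 34.8% (23.5% to 47.6%) and 40.2% (35.4% to 45.1%) after thinning, with overlapping intervals. Positive cells had a median of 4.5 Gzmb UMIs in the control and 3 in the knockout library. A single control cell of 25746 UMIs held 218 of the 537 control Gzmb UMIs, and without the 2 highest cells of each library the log2 ratio was -0.21 in place of -0.89. In NK-like cells the Gzmb shares were 35.3% and 50.2%, or 27.3% and 38.8% after thinning, and the log2 ratio without such cells was 1.51. For comparison, 1.34% of the knockout B-like cells had a Gzmb UMI (0.677% after thinning). Neutrophil-like cells had 18 Gzmb UMIs in 2 of 293 control cells (21.8 CPM) and 3 UMIs in the knockout library. None of the thinned neutrophil-like cells of either library had one.

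**Figure D3:**
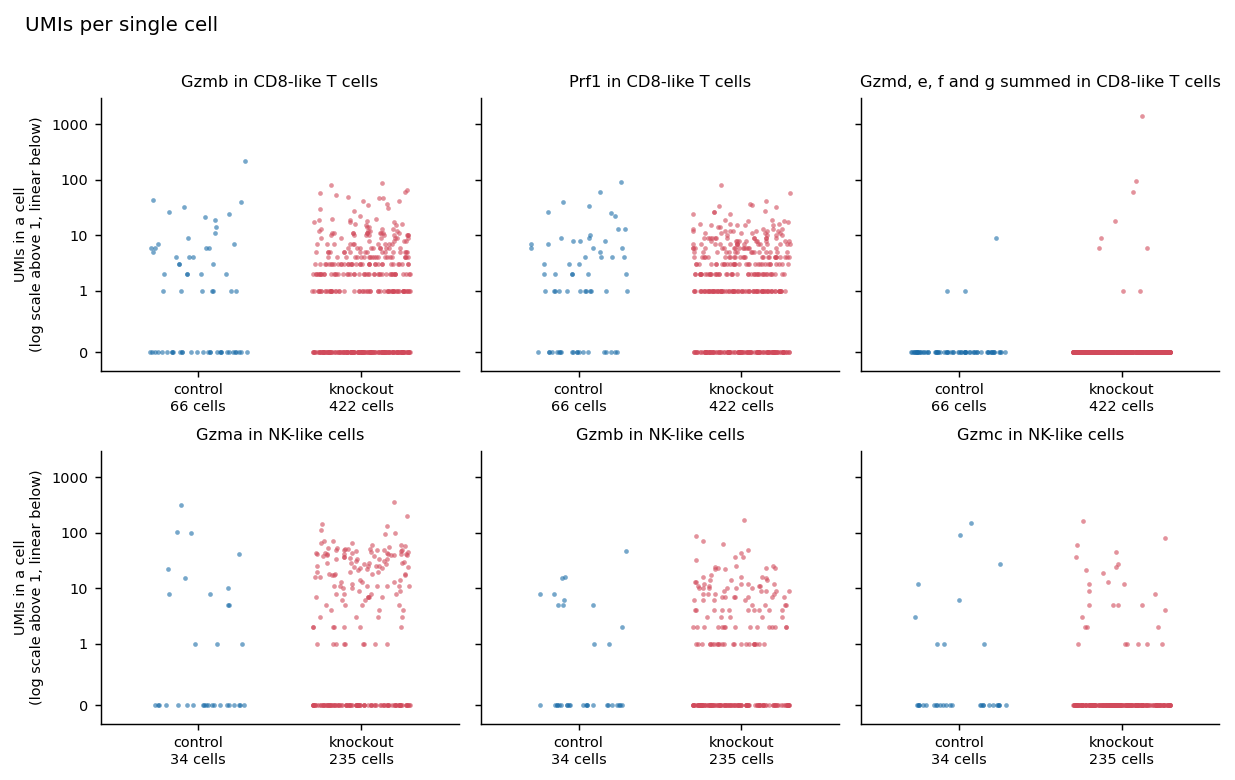
UMIs of Gzmb, Prf1 and the sum of Gzmd to Gzmg in single CD8-like T cells, and of Gzma, Gzmb and Gzmc in single NK-like cells (y axis, UMIs in a cell, log scale above 1 and linear below; each point is a cell, spread sideways only to be seen). Single control cells reach 218 Gzmb UMIs among CD8-like T cells, and 323 Gzma and 148 Gzmc UMIs among NK-like cells.

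Foxp3 regulatory-like T cells also carried Gzmb. The level was 340.4 (205 to 532) CPM from 19 UMIs in the 19 control cells and 602 (555 to 653) CPM from 596 UMIs in the 260 knockout cells, and the intervals did not overlap. A Gzmb UMI was found in 21.1% and 50% of them, or 11.8% (1.46% to 36.4%) and 31.0% (25.4% to 37.0%) after thinning, with intervals that overlapped. No ratio is given because the control held under 20 cells. In the knockout library this was the third highest Gzmb level of any set, after NK-like and CD8-like T cells, while Prf1 in the same cells was at 106 (86.8 to 128) CPM, close to that of the mixed T cells without checkpoint transcripts at 108 (83.8 to 137). Cycling T-like cells had Gzmb at 578 (395 to 816) and 319 (284 to 358) CPM, and naive-like T cells of the knockout library at 13.6 (7.92 to 21.8), while the 15 control naive-like T cells held 17 Gzmb UMIs in 2 cells.

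Gzmk, a granzyme of memory and early effector-memory T cells, was higher over all T cells of the knockout library (55.3 CPM) than in its NK-like cells. In the CD8-like T cells it was at 66.2 (39.8 to 103) CPM in the control and 97.3 (83.9 to 112) in the knockout library, a ratio of 1.47 (0.916 to 2.50), which includes 1. The shares of cells were 19.7% and 28.9%, and 7.58% and 7.99% after thinning. In the knockout library the mixed T cells without checkpoint transcripts had a like level, 106 (82.3 to 135) CPM, and NK-like cells had 9.85 (4.25 to 19.4). Among mixed T cells with checkpoint transcripts there were 0 and 20 UMIs, which gives no lower bound above 1.

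Gzmm, a granzyme known from NK and unconventional T cells, was barely detected in lymphocytes. T and NK cells had 2 control and 21 knockout UMIs, a ratio of 1.10 (0.268 to 9.66), from which no direction can be read. Of the knockout UMIs 2 were in NK-like cells and 11 in naive-like T cells. The largest count was in control epithelial-like cells, 88 UMIs in 86 cells, which is 0.829 (0.665 to 1.02) CPM against 0.434 (0.291 to 0.624) in the knockout library. The unnamed clusters closest to them had the other direction, with 41 and 51 UMIs, 0.928 and 1.58 CPM and a ratio of 1.70 (1.11 to 2.63). Relative to Cd3 transcripts, epithelial-like cells held 1678 and 84.5 times as much Gzmm as T and NK cells did. Cd3 transcripts were scarce in these cells, at 0.518 CPM in the control. Relative to all UMIs the order was the reverse, as T and NK cells had Gzmm at 2.51 and 2.76 CPM. The T and NK value rests on 2 UMIs in the control.

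Prf1, the pore-forming protein, was highest in CD8-like T and NK-like cells, like Gzmb. In CD8-like T cells it was at 1612 (1469 to 1766) CPM in the control (463 UMIs) and 893 (852 to 936) in the knockout library (1745 UMIs), with intervals that did not overlap. The ratio was 0.554 (0.4998 to 0.615), and the log2 ratio moved from -0.85 to -0.57 without the 2 highest cells of each library. The share of CD8-like T cells with Prf1 was 69.7% and 70.6%, and 43.9% and 39.0% after thinning. Positive cells had medians of 4 and 3 Prf1 UMIs, given without intervals. The 2 highest control cells held 20.1% and 13.2% of the control Prf1 UMIs. As for Gzmb, part of the difference thus lay in single control cells.

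In NK-like cells Prf1 was higher in the knockout library, at 446 (339 to 576) and 683 (628 to 743) CPM, a ratio of 1.53 (1.17 to 2.05). It was found in 52.9% and 57.9% of cells, or 24.2% and 36.6% after thinning. The direction was thus the reverse of that in CD8-like T cells for both Gzmb and Prf1. Whether the differences of the subsets themselves differ was not tested. In the mixed T cells with checkpoint transcripts Prf1 was at 158 (97.5 to 241) and 161 (137 to 189) CPM.

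Nkg7, a membrane protein needed for granule release, was the member found in most T and NK cells. In CD8-like T cells it was at 3493 (3279.9 to 3716) and 2926 (2850.5 to 3003) CPM, a ratio of 0.838 (0.783 to 0.897), in 93.9% and 93.4% of cells (86.4% and 84.3% after thinning), with a median of 13 UMIs per positive cell in both. In NK-like cells it was at 1729.6 (1511 to 1971) and 1790.3 (1699 to 1885) CPM, a ratio of 1.04 (0.899 to 1.196). The subsets could be ordered by their Nkg7 level. In the knockout library its level went from CD8-like T cells through NK-like cells (1790.3 CPM), mixed T cells without checkpoint transcripts (1495), cycling T-like cells (923), mixed T cells with checkpoint transcripts (881), Foxp3 regulatory-like T cells (758) and the unnamed shallow T cluster (418) down to naive-like T cells (225). Of these neighbours, only cycling T-like cells and mixed T cells with checkpoint transcripts had overlapping intervals. In the mixed T cells with checkpoint transcripts Nkg7 was lower in the knockout library, with a ratio of 0.638 (0.543 to 0.753). B-like cells of the knockout library had Nkg7 in 1.34% of cells (0.677% after thinning).

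Fasl, the ligand of the death receptor Fas, showed no difference that the counts could resolve. It was at 90.5 (59.1 to 133) and 119 (104 to 136) CPM in CD8-like T cells, a ratio of 1.32 (0.877 to 2.06), and at 76.9 (36.9 to 141) and 119 (96.9 to 146) CPM in NK-like cells, a ratio of 1.55 (0.810 to 3.34). Intervals overlapped in both subsets, and both ratios leave room for a difference of over 1.5-fold. The share of CD8-like T cells with Fasl was 33.3% and 37.4%, or 6.06% (1.68% to 14.8%) and 13.3% (10.2% to 17.0%) after thinning. Foxp3 regulatory-like and naive-like T cells of the knockout library were low, at 23.2 (14.7 to 34.9) and 20.8 (13.6 to 30.5) CPM.

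Serpinb9, which inhibits granzyme B inside cytotoxic cells, was lower in the CD8-like T cells of the knockout library. The levels were 108 (73.3 to 153) CPM from 31 UMIs and 50.7 (41.2 to 61.7) from 99, a ratio of 0.469 (0.311 to 0.727), and the intervals did not overlap. It was the 1 member of 7 with at least 20 UMIs called 2-fold lower in CD8-like T cells, with Gzma the 1 called higher (4.83% and 4.48% of all genes), so the share of members called in each direction rests on 1 gene. The median log2 ratio of the 7 was -0.26, against -0.08 over all genes. The share of CD8-like T cells with Serpinb9 was 21.2% and 14.9%, and 6.06% and 4.36% after thinning. Without the 2 highest cells of each library the log2 ratio was -0.84, with an interval that includes 0, and with the unnamed shallow T cluster added it was -1.04. Mixed T cells with checkpoint transcripts had the gene lower too, with a ratio of 0.451 (0.231 to 0.946); of their 6 members with at least 20 UMIs this was the 1 called lower and Gzmk the 1 called higher (7.43% and 5.26% of all genes), the latter only by the pseudocount against 0 control UMIs, with a bound of at least 0.925-fold. In NK-like cells it was at 192 (124 to 284) and 224 (193 to 259) CPM, a ratio of 1.17 (0.765 to 1.85).

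Serpinb9 was also the member with the widest expression outside lymphocytes. Its highest level was in migratory dendritic-like cells, at 1088 (856 to 1364) CPM in 17 control cells and 547 (478 to 624) in 70 knockout cells, found in 70.6% and 70.0% of them. The epithelial-like cells, which include the tumour cells, had 67.0 (65.4 to 68.6) and 64.5 (62.6 to 66.5) CPM, with the gene in 50.3% and 53.2% of cells. The ratio in epithelial-like cells was 0.964 (0.928 to 1.001), whereas it was 0.629 (0.586 to 0.675) in the unnamed clusters closest to them, at 55.8 and 35.1 CPM. Monocyte/macrophage-like cells were low, at 11.9 (7.97 to 17.1) and 8.16 (5.18 to 12.3) CPM. Serpinb9 belongs to a family of near copies, and how the counting divided reads among them is not stated in the sources used here.

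**Figure D4:**
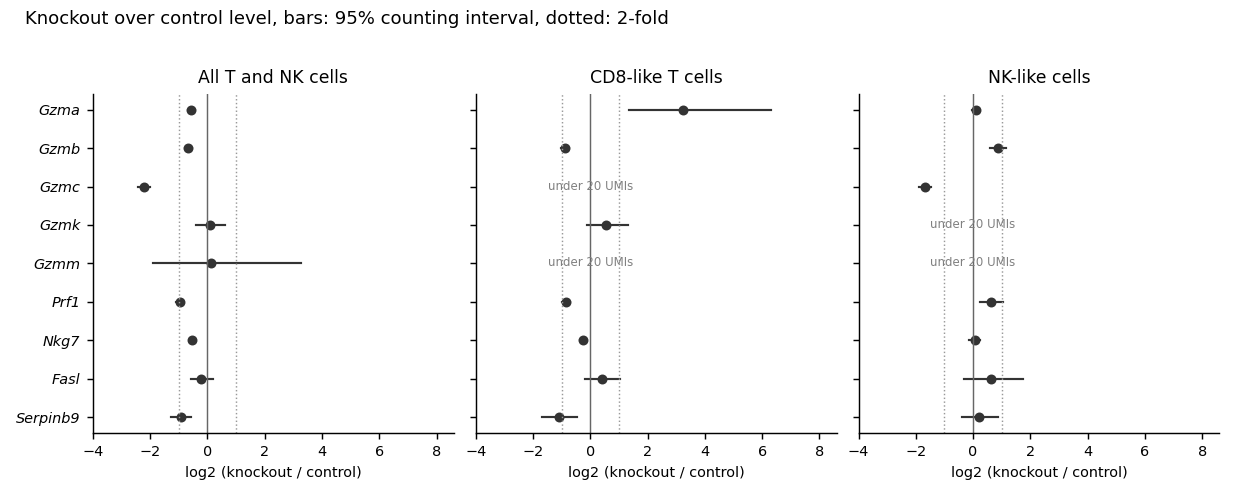
Knockout over control ratio of each gene in all T and NK cells, CD8-like T cells and NK-like cells (x axis, log2 of the ratio of CPM; bars are exact 95% intervals covering counting error only; dotted lines mark 2-fold; genes with under 20 UMIs are not drawn). Gzmb and Prf1 lie to the left of 0 in CD8-like T cells and to the right in NK-like cells, and Serpinb9 lies to the left in CD8-like T cells.

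NK-like cells carried the granule genes together. At 1000 UMIs per cell, 127 knockout NK-like cells had Gzma and 105 did not. Gzmb was found in 58.3% of the first and 15.2% of the second, Prf1 in 58.3% and 10.5%, and Serpinb9 in 32.3% and 3.81%. Gzmc did not follow this order, with 6.30% and 12.4%. Among the 21 knockout NK-like cells with Gzmc, 76.2% had Gzmb against 35.1% of the rest, while Gzma was in 38.1% against 56.4%. Gzmb was thus frequent in cells with either, and Gzma was not more frequent among cells with Gzmc. In the control the 10 cells with Gzma had Gzmb in 50% against 17.4% of the 23 without, shares of few cells given without intervals.

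Gzmb and Prf1 were also found together in CD8-like T cells, Prf1 more often with Gzmb than without. Prf1 was found in 47.0% of the 166 thinned knockout cells with Gzmb and in 33.6% of the 247 without. In the control it was found in 65.2% of the 23 cells with Gzmb and 32.6% of the 43 without. These shares are given without intervals and describe the cells counted. Most CD8-like T cells had no granzyme UMI at this depth. Of the 5 granzymes none was found in 63.6% of control and 55.2% of knockout CD8-like T cells, 1 in 30.3% and 40.4%, and 2 in 6.06% and 4.36%. In NK-like cells, none was found in 48.5% and 36.6% and 2 in 18.2% and 32.3%. These counts come from thinned cells, and depth alone can hold a gene at 0 in a cell that has it.

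**Figure D5:**
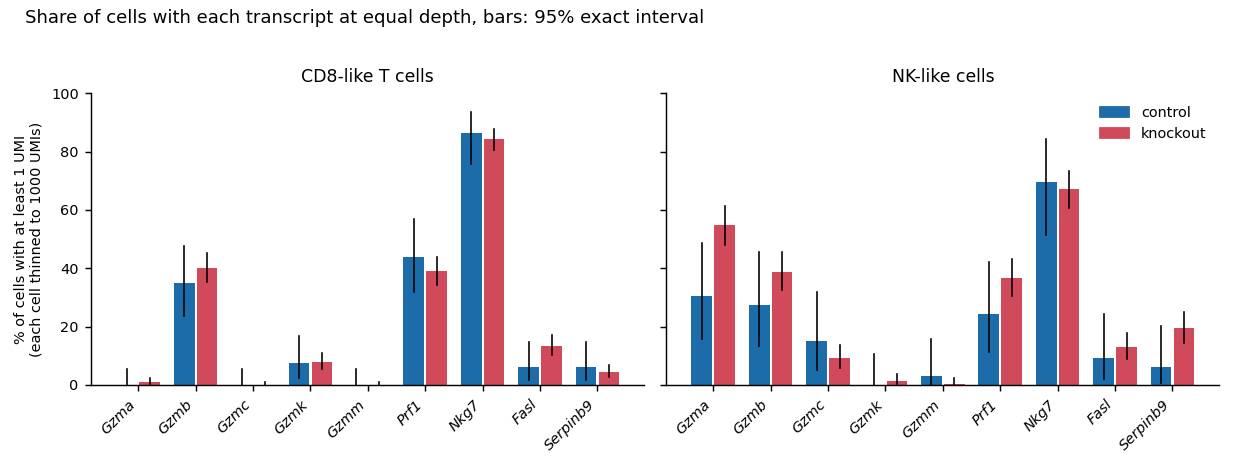
Share of cells with a UMI of each gene after thinning every cell to 1000 UMIs (y axis, % of cells; bars are libraries, lines exact 95% Clopper-Pearson intervals), in CD8-like T and NK-like cells. The Gzma share in NK-like cells is 30.3% in the control and 54.7% in the knockout library, while the intervals of the Gzmb shares in CD8-like T cells, 34.8% and 40.2%, overlap.

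Other granzymes of the chromosome 14 cluster appeared in few cells. Gzmd, Gzme, Gzmf and Gzmg are near copies of each other, so reads may be divided among them and their sum is given. CD8-like T cells had 11 such UMIs in 3 control cells and 1620 in 9 knockout cells, and 1 knockout cell of 46459 UMIs held 1425 of them. All 9 knockout cells also had Gzmb. The single high cell had 832 Gzmd, 81 Prf1, 98 Nkg7 and 962 Ccl3 UMIs, and 0 Krt8 UMIs. The 4 genes were each called higher in CD8-like T cells, mainly on that cell. NK-like cells had 0 and 8 UMIs of these genes.

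The wider cytotoxic pathway was followed in 43 further genes, grouped by role (granule matrix, docking and release, secreted ligands, receptors, transcription factors, inhibitors). Over T and NK cells 42 had at least 20 UMIs, of which 3 were 2-fold higher and 4 were 2-fold lower in the knockout library (4.14% and 5.09% of all genes). In CD8-like T cells 38 had at least 20 UMIs, of which 5 were higher, among them Gzmd, Gzme, Gzmf and Gzmg, and 5 were lower (4.48% and 4.83% of all genes), with a median log2 ratio of -0.15 against -0.08 over all genes. The fifth higher gene was Slamf7, an activating receptor of cytotoxic cells, at 20.9 and 68.6 CPM and in 6.06% and 23.7% of cells. The control level of Slamf7 rests on 6 UMIs in 4 cells. None of the 7 genes of granule docking and release was called in CD8-like T or NK-like cells, and their median log2 ratios were -0.17 and -0.18. For NK-like cells 34 genes had at least 20 UMIs, of which 2 were higher and 2 lower (6.38% and 5.08% of all genes), and the median was -0.03, as over all genes.

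The genes called lower in CD8-like T cells were mostly secreted signals. Ccl3 was at 5781 CPM in the control and 869 in the knockout library, Ccl4 at 5230.5 and 1851, and Ifng, the interferon gamma gene, at 1100.4 and 447. The shares of cells were close, with Ccl3 in 36.4% and 29.6%, Ccl4 in 62.1% and 60.7%, and Ifng in 56.1% and 51.9%. The top 5 control cells held 97.6% of the Ccl3, 81.3% of the Ccl4 and 70.9% of the Ifng UMIs. The control cell with 218 Gzmb UMIs alone held 1354 of 1660 Ccl3 UMIs. Xcl1, with a ratio of 0.245 (0.153 to 0.399), and Eomes, a T-box factor, with 0.467 (0.267 to 0.859), were the others. Of the 30 control Xcl1 UMIs 26 were in 1 cell, against 15 of 50 in the knockout cell with the most. The 17 control Eomes UMIs were in 8 cells, with 82.4% in 5 of them. Ccl5, by contrast, was at 4746 and 8076 CPM, a ratio of 1.70 (1.61 to 1.80). The granule proteoglycan Srgn had a ratio of 0.757 (0.680 to 0.845), and the factors Tbx21 and Runx3 had 0.972 (0.698 to 1.38) and 1.04 (0.852 to 1.28).

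The pathway genes called higher in NK-like cells were 2 chemokine genes. Ccl5 was at 1445 CPM in the control and 5256 in the knockout library, a ratio of 3.64 (3.14 to 4.23), in 44.1% and 83.4% of cells. Ccl4 had a ratio of 5.74 (2.75 to 14.4), in 11.8% and 28.1% of cells, with 7 control UMIs in 4 cells. Ctsc, the protease that removes the propeptide of granzymes, was lower, at 161 and 61.6 CPM, a ratio of 0.381 (0.225 to 0.668). Of the 21 control Ctsc UMIs, 66.7% were in 5 cells. Klrg1 was called lower on 7 and 21 UMIs, and its interval of 0.197 to 1.34 includes 1. The transcription factor genes Eomes and Tbx21 had ratios of 0.541 (0.355 to 0.850) and 0.598 (0.428 to 0.851).

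Outside T and NK cells the members other than Serpinb9 were low. In cells that were neither T nor NK, 6 of the 9 genes were 2-fold higher in the knockout library and none lower (9.22% and 2.64% of all genes). In epithelial-like cells Nkg7 was at 0.434 (0.317 to 0.578) and 2.43 (2.07 to 2.83) CPM. Relative to Cd3 UMIs in the same cells, epithelial-like cells held 1.07 and 0.913 times as much Nkg7, and 0.973 and 0.920 times as much Prf1, as T and NK cells did. The same value was 0.938 and 0.637 for Gzmb and 0.434 and 0.820 for Gzma, which had 8 UMIs in the control cells. In knockout plasma-like cells it was 4.34 for Prf1, with 65 UMIs and the gene in 19.8% of 197 cells. Neutrophil-like cells had Nkg7 at 89.6 (70.4 to 113) and 73.6 (51.0 to 103) CPM, in 4.10% and 3.24% of cells, with 83.8% and 97.1% of UMIs in 5 cells. A cluster closest to plasma cells stayed unnamed because more NK-list markers (Fcer1g, Tyrobp) than plasma-list markers were among its top 10 genes. S100a9, Lyz2 and Ctss were also among those genes. The cluster held 28.9% of the control Gzma UMIs, 301 in 85 cells. Of these UMIs, 276 were in 1 cell with 2 Ncr1, 6 Krt8 and 0 Cd3e UMIs.

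Across the 37 sets with at least 20 cells, each member was set beside 14623 other genes by Pearson's r of log2 level, a description over sets that share library and depth. Gzma was most like the NK receptor genes Klra7 (0.92) and Ncr1 (0.90), and Gzmc like Ncr1 (0.94) and Klra7 (0.93). Both receptor genes are in the marker list that named the NK-like cells, so these values partly restate that naming. Gzmb was most like Prf1 (0.92) and Bspry (0.91), and Prf1 like Il2rb (0.96) and Ifng (0.95). Nkg7 was most like Cst7 (0.96), Fasl like Sytl3 (0.97), and Gzmk like Abcb9 (0.89), with Cd8b1 in its leading 3 (0.88). Serpinb9 reached Serpinb6b (0.81), a fellow serpin.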

How the data were processed

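The authors deposited raw UMI counts for each gene in each barcode. The headers name Cell Ranger 8.0.0 (per the file headers), whereas the submitters' processing notes list Cell Ranger 3.1.3 and the build mm10. The 9 genes and all lists were chosen with earlier results of these data known.

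A cell needed 500 genes and no more than 15% of its UMIs from mitochondria, and doublets called by Scrublet (expected rate 0.08, scanpy 1.11.5) were removed, 148 and 341. Of 13766 and 12251 barcodes (173934025 and 137527647 UMIs), 11516 control and 10467 knockout cells remained. Cells were clustered (2000 variable genes, the 9 genes not barred, 30 components, 15 neighbours, Leiden resolution 1, leidenalg 0.10.2) and named from 21 marker lists that hold none of the 9 genes. T and NK cells were clustered again without the 9 genes, the 43 pathway genes and receptor V and J genes, into 11 clusters. The scoring of names was set after clusters had been seen.

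UMIs were summed per set and library. Sums have exact Poisson intervals, shares Clopper-Pearson intervals and ratios exact conditional intervals, at 95%. Log2 ratios used a pseudocount of 1 UMI. A gene with at least 20 UMIs and a ratio past 2-fold counted as called, which is a size and not a test. A count of 0 was given a floor of 3 counts. Thinning drew 1000 UMIs per cell, leaving out shallower cells. All 9 genes were named in the text. Pathway genes were named where called, or as the main granule, chemokine and transcription factor genes. Likeness used log2 of CPM plus 10 and genes with at least 200 UMIs. Gene places came from GENCODE M21 matched by identifier, and upstream letters from RefSeq, which had an entry for all 9. The ratios and calls were tried on simulated UMIs drawn from pooled totals, without cells. That trial does not cover genes with much of their UMIs in single cells. Other tools were python 3.11.15, scipy 1.17.1, numpy 2.4.6, pandas 2.3.3 and matplotlib 3.10.9. One marker share in NK-like cells is not reported here.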

Additional observations from a re-analysis of the deposited data

How the results depend on the processing

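No paired analysis was possible because each genotype had 1 library. Alternatives covered the cell filter, doublets, subset resolution, the members left in the clustering, gating by marker, the pseudocount, the count minimum, thinning, the mean over cells and a fixed subset mixture. Of the values for single genes, 760 stayed within their interval, 257 moved and, among those past 2-fold, 5 reversed. These 5 were the Gzma log2 ratio in CD8-like T cells, 2.66 as reported, which was -1.83 with a looser cell filter, -1.16 with doublets kept, -2.08 at resolution 2, -2.12 with the members left in the clustering and -1.70 with gated subsets. The cause was not tested. Values within 2-fold also changed sign: over all T and NK cells Gzma (-0.74 to 0.57), Gzmb (-0.82 to 0.10), Gzmk (-0.16 to 0.39), Gzmm (-0.89 to 0.83) and Fasl (-0.37 to 0.04), and Serpinb9 in NK-like cells (-0.02 to 0.69).

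Counts of members past 2-fold moved as follows. In all T and NK cells, 3 in place of 1 were lower with a stricter filter, where the doublet caller marked 0 control cells and so did not work. Among CD8-like T cells, in place of 1 lower, there were 0 with a stricter filter and as a mean over cells, 3 with a looser filter, doublets kept or gated subsets, and 4 at resolution 2 or with the members left in. In the same cells, 0 in place of 1 were higher under each of those settings except the mean over cells. In NK-like cells, 1 in place of 0 was higher with doublets kept, at resolution 2 or as a mean over cells, and 2 with gated subsets. Pathway genes lower in CD8-like T cells were 3 in place of 5 at resolution 0.5, with gated subsets or with at least 100 UMIs, and 2 in place of 5 were higher as a mean over cells. In NK-like cells, in place of 2 lower, there were 1 with doublets kept, at resolution 2 or gated, 0 with at least 100 UMIs and 4 as a mean over cells.

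For CD8-like T cells the log2 ratio stayed below 0 in all 11 alternatives for Gzmb (-1.20 to -0.21), Prf1 (-1.03 to -0.57) and Serpinb9 (-1.35 to -0.56). In NK-like cells it stayed above 0 in all 9 for Gzmb (0.87 to 2.03), Prf1 and Gzma (0.07 to 1.84), and below 0 for Gzmc (-2.46 to -0.10). These ranges include the values without the 2 highest cells of each library. That setting gave the -0.21 for Gzmb in CD8-like T cells and the -0.10 for Gzmc. For Gzmc its interval (-0.51 to 0.38) includes 0, so the direction is uncertain. NK-like cells were not compared under the stricter filter, which left 16 control cells. The main limits are 34 control NK-like and 66 control CD8-like T cells, single cells that hold much of a gene, and no spread between mice.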
